A study of Mus musculus with 6 samples.

Results

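Expression of 10 genes that drive T cells from the G1 phase of the cell cycle into DNA synthesis was compared between cytotoxic T cells with and without a retrovirally delivered HDAC7 mutant. The genes encode the D-type cyclins Ccnd2 and Ccnd3, the E-type cyclins Ccne1 and Ccne2, the cyclin-dependent kinases Cdk2, Cdk4 and Cdk6, the kinase-activating phosphatase Cdc25a and the transcription factors E2f1 and E2f2. They were read with all 29 of the 45101 probe sets on the array whose annotation names exactly 1 of these symbols, and they are 10 of the 18193 genes with a probe set of their own. All 10 genes and 27 of the 29 probe sets lay above the level set for testing, a mean log2 signal of 1.27. The remaining probe sets, 1 each for Cdk2 and Cdc25a, are given by their values.

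In the textbook order of events, D-type cyclins appear first after mitogen or antigen stimulation and bind CDK4 and CDK6, which phosphorylate the retinoblastoma protein RB. RB that has been phosphorylated releases E2F transcription factors, which switch on cyclin E and the genes of DNA replication. Cyclin E then binds CDK2, from which CDC25A removes inhibitory phosphates, and the cell commits to S phase. In T lymphocytes CDK6 and cyclins D2 and D3 are the main D-type components, and E2F1 and E2F2 are also known as restraints on T cell proliferation.

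The cells were P14 cytotoxic T cells of strain C57Bl/6, whose transgenic receptor recognises a peptide of lymphocytic choriomeningitis virus. They had been stimulated for 24 h with gp33 and then given a retrovirus that encodes a GFP-HDAC7 mutant deficient in phosphorylation. HDAC7 belongs to the class IIa histone deacetylases, and phosphorylation sends it out of the nucleus. The infected cells were sorted into 3 GFP positive samples, labelled with the mutant, and 3 GFP negative samples, labelled control. Both groups therefore share the peptide activation and the exposure to virus, and the control is not a culture infected with an empty vector, which was not analysed here. Replicates are named biological in the labels, without word of whether they came from separate mice or cultures, so the p-values measure the spread between these samples, which may be partly technical. In sorted pools, fewer cells in a given phase of the cycle and less RNA per cell cannot be told apart.

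The G1 genes changed in both directions. Cdk2, E2f2, Ccnd2 and Ccnd3 rose in GFP positive cells, by 1.68-fold, 1.60-fold, 1.39-fold and 1.32-fold. Cdk6 fell to a level 2.02-fold lower and Ccne1 to a level 1.47-fold lower. Ccne2, Cdk4, Cdc25a and E2f1 did not pass the test. Thus 6 of 10 genes were called by limma at an adjusted p of 0.05, 4 higher and 2 lower, where 42.1% of all 13194 genes tested were called, 24.6% higher and 17.5% lower. In these same 6 genes no GFP positive value reached the GFP negative range, which held for 53.8% of all genes tested. The median size of change, in either direction, was 0.43 log2 units for the 10 genes and 0.25 for all genes tested. The share called was larger among brighter genes. With the filter at the 60th percentile of mean signal, 53.3% of 9879 genes were called, and the same 6 of the 10. The 42.1% set beside the gene lists below includes dim genes in the same way. No test of the set as a whole was made, so its share of calls is given only beside that background.

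**Figure D1:**
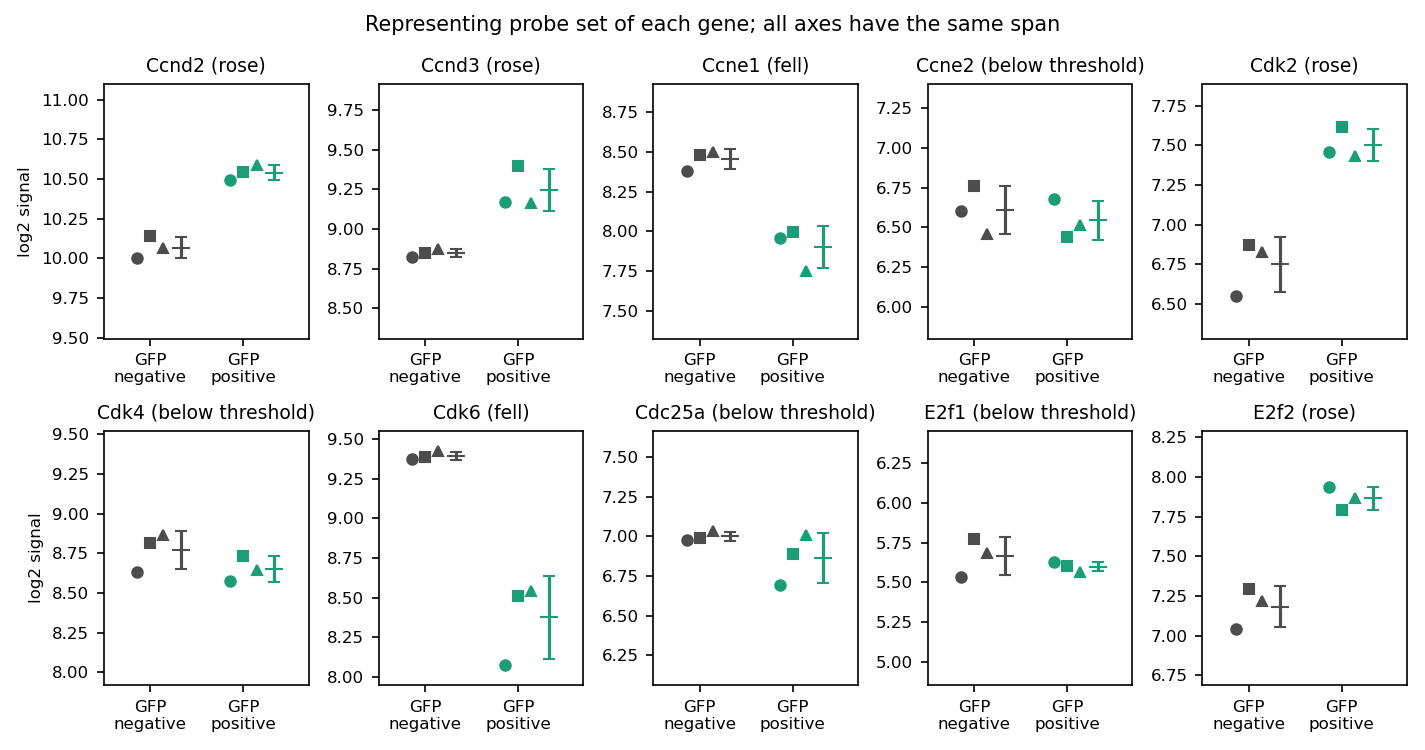
Log2 signal (vertical axes, all with the same span) of the brightest probe set of each of the 10 genes in the 3 GFP negative (grey) and 3 GFP positive (green) samples; marker shapes give replicate numbers 1 to 3 (circle, square, triangle), and bars give mean ± SD. The groups are separate in Ccnd2, Ccnd3, Ccne1, Cdk2, Cdk6 and E2f2 and overlap in the other 4 genes.

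The D-type cyclin genes were both higher. Ccnd2, probe set 1416122_at, read 10.002, 10.138 and 10.064 on the log2 scale in GFP negative samples 1, 2 and 3 and 10.492, 10.542 and 10.588 in GFP positive samples 1, 2 and 3. Every GFP positive sample lay above every GFP negative one, among the brightest signals of the array. The rise was 0.47 ± 0.08 (SE, log2), with a limma adjusted p of 0.0021.

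Ccnd2 was covered by 7 probe sets, and all 7 had a higher mean in GFP positive cells, by 0.36 to 0.51. In the fit over all 27022 probe sets past the level, in which 32.5% were called, 6 of the 7 passed. The exception was the dimmest, at 3.96 in GFP negative and 4.35 in GFP positive cells, whose groups overlapped. Of the 6, the 2 with a mean of 8.67 and 6.49 lost their call when replicate number was fitted as a block (adjusted p of 0.061 and 0.092, limma), and the other 4 kept it. Both also lost it without GFP negative 2, GFP negative 3, GFP positive 2 or GFP positive 3 (limma adjusted p of 0.058 to 0.15), and without GFP positive 2 the dimmest passed, at 0.56 (limma adjusted p = 0.046).

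Ccnd3, which encodes cyclin D3, was read by probe set 1415907_at at 8.82, 8.85 and 8.87 in the GFP negative samples. The GFP positive samples read 9.17, 9.40 and 9.17, with the second highest of them and no overlap. The change was 0.40 ± 0.09 (SE, log2; limma adjusted p = 0.0090). In the fit over all probe sets it missed the threshold without GFP negative 1, at 0.38 (limma adjusted p = 0.053). A second Ccnd3 probe set, low in control cells at 1.97 ± 0.34 (SD, n = 3), read 3.31 ± 0.07 (n = 3) in GFP positive cells. Its rise of 1.34 shrank to 0.22 once signals had 32 added on the linear scale, so no fold is given for it. The third, with a GFP negative mean of 2.47, moved by -0.05 and did not pass, so the probe sets for Ccnd3 disagreed in size, the brightest giving the value used here. Ccnd1, the D-type cyclin that most other tissues use, lay at 2.23 in GFP negative and 2.28 in GFP positive cells and did not pass.

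The kinases that partner D-type cyclins moved unequally. Cdk6, probe set 1435338_at, read 9.37, 9.38 and 9.42 in the GFP negative samples, which lay within 0.06 log2 units of each other. In the GFP positive samples it read 8.08, 8.51 and 8.54, all lower, with sample 1 the lowest. The change was -1.02 ± 0.13 (SE, log2; limma adjusted p = 5.7e-04), the largest among the 10 genes in either direction.

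The second Cdk6 probe set repeated this difference. It read 8.35, 8.29 and 8.25 in GFP negative and 6.84, 7.33 and 7.30 in GFP positive samples, a change of -1.14, again with GFP positive sample 1 lowest. The third, dim at 2.45 ± 0.38 (SD, n = 3), changed by -0.71 and passed as well, but its change was -0.09 and no longer passed with 32 added in linear units (limma adjusted p = 0.072), and it lost its call without GFP negative 1, GFP negative 2 or GFP positive 3. Without GFP positive 1, the change of the brightest Cdk6 probe set was -0.87.

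Cdk4, the other kinase of the pair, did not pass on any of its 3 probe sets. The brightest read 8.63, 8.81 and 8.87 in GFP negative and 8.57, 8.73 and 8.64 in GFP positive samples, and the groups overlapped. Within replicate numbers 1, 2 and 3, a pairing that the labels do not state, the GFP positive sample differed by -0.06, -0.08 and -0.22, lower in 3 of 3. The mean change was -0.12, with a 95% interval of -0.33 to 0.09 from limma, which leaves room for a fall smaller than that of Cdk6. The other probe sets changed by -0.24 and -0.12. On the first of these every GFP positive value lay below the GFP negative ones. It passed in 3 alternatives, with arrays centred on their median (limma adjusted p of 0.021), with a robust prior that follows intensity (0.028) and with 32 added in linear units (0.0495).

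The promoter sequences of these kinases are shown because both hold CACGTG, the E-box bound by MYC and related factors, a number of times that differs between them. Sequences are from RefSeq, build GRCm38.p6, where 8 of the 10 genes had an entry of 250 bases before and 50 bases after the annotated start; Ccnd2 and Ccne2 had none. CACGTG, which is its own reverse complement, was found in 7.15% of the 32851 entries, and 4 or more copies in 0.0244%. The Cdk4 stretch lies at chr10:127063355-127063534 on the plus strand, bases -180 to -1 from the start. The Cdk6 stretch lies at chr5:3343653-3343712 on the plus strand, bases -240 to -181. Capitals mark CACGTG, 4 times in Cdk4 and once in Cdk6.
Cdk4: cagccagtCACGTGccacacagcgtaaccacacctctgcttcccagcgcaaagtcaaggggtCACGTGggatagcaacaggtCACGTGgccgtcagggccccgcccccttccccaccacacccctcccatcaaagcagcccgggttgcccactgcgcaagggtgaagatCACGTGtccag
Cdk6: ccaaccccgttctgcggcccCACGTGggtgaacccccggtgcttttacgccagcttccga
The gene with 4 copies, Cdk4, did not pass the test, and the gene with 1 copy, Cdk6, had the largest change. A match is a run of letters in this window, and binding was not measured.

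The E-type cyclins also differed from each other. Ccne1, the cyclin E1 gene, was read by probe set 1441910_x_at at 8.382, 8.483 and 8.498 in GFP negative and 7.955, 7.996 and 7.751 in GFP positive samples. All 3 GFP positive samples lay below all 3 GFP negative ones. The change was -0.55 ± 0.09 (SE, log2; limma adjusted p = 0.0022). Probe sets with the suffix x can share probe sequences with other transcripts, and the second Ccne1 probe set, without that suffix, changed by -0.51 and passed too, from 7.36, 7.63 and 7.51 to 6.98, 7.08 and 6.93.

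Ccne2, cyclin E2, had a single probe set. It read 6.60, 6.76 and 6.46 in GFP negative and 6.68, 6.44 and 6.52 in GFP positive samples, with the groups interleaved. The change was -0.06 (95% interval -0.31 to 0.18, limma adjusted p = 0.64). By replicate number (1, 2 and 3) the differences were 0.07, -0.32 and 0.06, higher in 2 and lower in 1.

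Cdk2, the kinase that E-type cyclins activate, had the largest rise among the 10 genes. Probe set 1416873_a_at read 6.55, 6.87 and 6.83 in GFP negative and 7.46, 7.62 and 7.43 in GFP positive samples, and even the lowest GFP positive sample stood above the highest GFP negative one. The change was 0.75 ± 0.11 (SE, log2; limma adjusted p = 0.0011). The other Cdk2 probe set had means of 0.42 (GFP negative) and 0.45 (GFP positive), which is below the 0.60 to 0.72 that control probe sets for a bacterial transcript (TrpnX) averaged per array, so the rise of Cdk2 rests on 1 probe set.

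Cdc25a, whose phosphatase activates CDK2, did not pass. It read 6.98, 6.99 and 7.03 in GFP negative samples, within 0.06 log2 units of each other, and 6.69, 6.89 and 7.01 in GFP positive samples, where sample 3 reached into the GFP negative range. Within replicate numbers 1, 2 and 3 it was lower in GFP positive cells each time, with differences of -0.28, -0.10 and -0.02. The change was -0.14 (95% interval -0.36 to 0.09, limma adjusted p = 0.29). It passed with each array centred on its median, at -0.25 (limma adjusted p = 0.045). The second probe set changed by -0.12, and the third, at 1.16 in GFP negative and 1.31 in GFP positive cells, lay under the level for testing.

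The E2F genes gave 1 rise and 1 gene that did not pass. E2f2 read 7.04, 7.29 and 7.22 in GFP negative and 7.94, 7.79 and 7.87 in GFP positive samples on probe set 1436434_at. The GFP positive samples were all higher, by 0.68 ± 0.09 on average (SE, log2; limma adjusted p = 8.3e-04). The second E2f2 probe set moved from 6.28, 6.41 and 6.37 to 6.79, 6.83 and 7.09, a rise of 0.55 that also passed.

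E2f1 read 5.53, 5.77 and 5.69 in GFP negative and 5.63, 5.60 and 5.57 in GFP positive samples, so the GFP positive samples lay inside the GFP negative range. The change was -0.07 (95% interval -0.27 to 0.14, limma adjusted p = 0.57). By replicate number (1, 2 and 3) the differences were 0.10, -0.17 and -0.12, higher in 1 and lower in 2. The other E2f1 probe sets changed by 0.11 and -0.05 and did not pass, the last being dim at 1.73 in GFP negative cells.

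E2F factors bind the letters TTTCCCGC, TTTCGCGC, TTTGCCGC or TTTGGCGC on either strand, and these were looked for in the same promoter entries. They occurred in 2.26% of all 32851 entries and in those of Cdk2, Cdc25a and E2f2, the last in 1 of its 2 entries. The stretches are shown because 2 of these 3 genes rose and the third did not pass. They are chr10:128705157-128705216 on the minus strand for Cdk2 (bases -165 to -106), chr9:109875489-109875548 on the plus strand for Cdc25a (bases -90 to -31) and chr4:136172303-136172323 on the plus strand for E2f2 (bases 30 to 50 after the start). Capitals mark the match, which in Cdk2 is the reverse complement of TTTCCCGC.
Cdk2: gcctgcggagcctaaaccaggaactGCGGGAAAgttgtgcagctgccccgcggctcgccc
Cdc25a: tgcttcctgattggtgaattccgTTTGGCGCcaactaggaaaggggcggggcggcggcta
E2f2: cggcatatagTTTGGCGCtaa
No match in the other entries says only that these letters are not in this window.

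**Figure D2:**
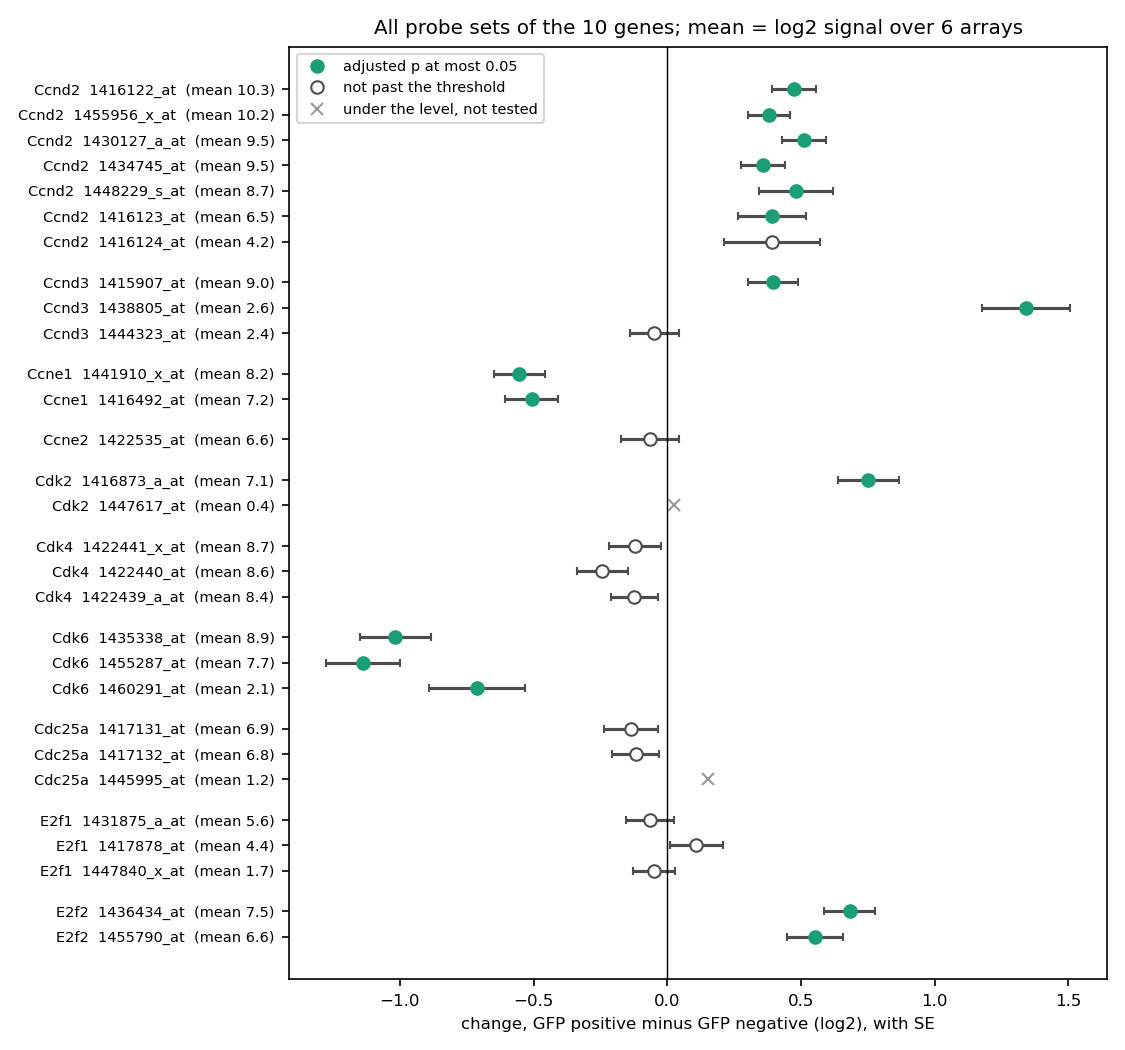
Change in log2 signal, GFP positive minus GFP negative, with its SE (horizontal axis) for all 29 probe sets, grouped by gene and ordered by mean signal over the 6 arrays. Filled points have a limma adjusted p of at most 0.05, open points did not pass and crosses were not tested; Ccnd2, Ccnd3, Ccne1, Cdk6 and E2f2 each have 2 or more called probe sets, all on 1 side of zero.

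Across probe sets, 16 of 27 tested were called, 11 higher and 5 lower, against 32.5% of all probe sets tested, 19.3% higher and 13.2% lower. With the filter at the 60th percentile, 15 of 25 were called, against 46.0% of all. The groups did not overlap in 17 of the 27, against 48.2% of all probe sets past the 40th percentile. Probe sets of a gene are not separate samples, and Ccnd2 alone supplied 7 of them. No probe set of a called gene was called in the opposite direction.

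Paralogs that serve the same step were then compared within each array, which removes any scaling of whole arrays. Values are the log2 signal of the first gene minus that of the second, less the mean of that difference in GFP negative samples. With 3 samples against 3 the exact two-sided permutation test cannot give a p under 0.1, so none of the 4 pairs could reach 0.05, and p-values were adjusted over the 4 pairs.

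Cdk4 minus Cdk6 was 1.12, 0.85 and 0.72 in GFP positive samples against -0.12, 0.05 and 0.06 in GFP negative ones. The difference of the changes was 0.90 ± 0.13 (SE), and the groups did not overlap (exact permutation p = 0.1, adjusted p = 0.13). E2f1 minus E2f2 was -0.79, -0.67 and -0.78 in GFP positive samples, while GFP negative samples lay between -0.01 and 0.01, a difference of -0.75 ± 0.04 (SE) with the same exact p values. For Ccne1 minus Ccne2 it was -0.49 ± 0.14 (SE), with the same exact p and no overlap.

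Ccnd2 minus Ccnd3 gave 0.08 ± 0.09 (SE; exact permutation p = 0.6, adjusted p = 0.6), and the groups overlapped. Averaging all probe sets of a gene turned this small difference to -0.14, since the second Ccnd3 probe set rose more than the first. In the kinase, E2F and cyclin E pairs the values of the groups were thus apart, but this test could not call any pair. Each of these pairs joins a gene that was called with another that was not, so the separation partly restates the results for single genes. The groups did not overlap in 53.8% of all single genes tested, and no such share was computed for pairs.

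**Figure D3:**
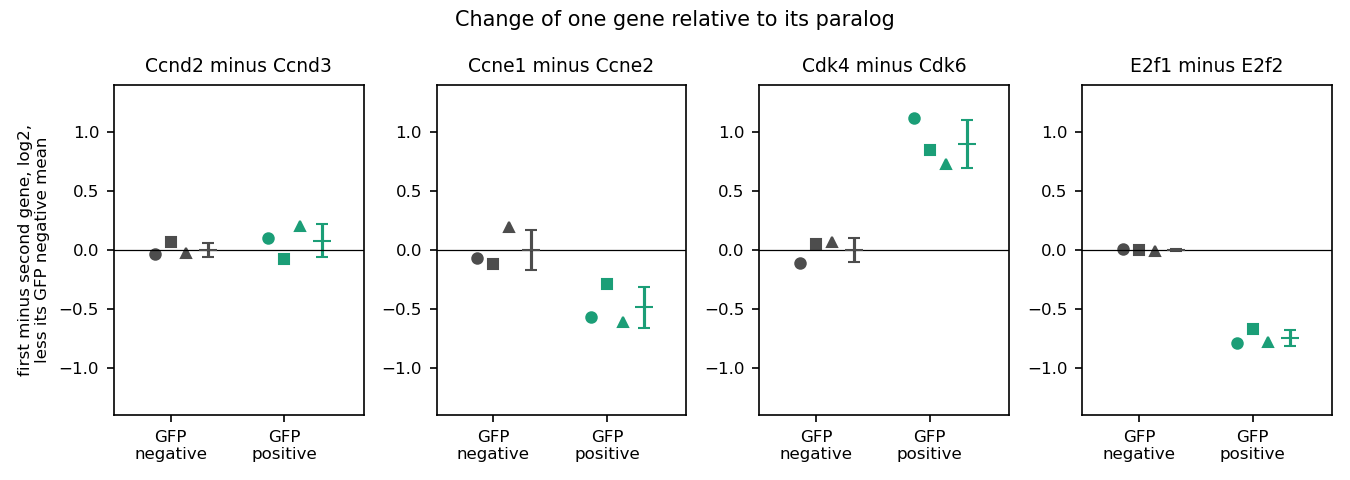
Log2 signal of the first gene minus that of the second within an array, less the GFP negative mean (vertical axes), for the pairs Ccnd2 and Ccnd3, Ccne1 and Ccne2, Cdk4 and Cdk6, and E2f1 and E2f2 in GFP negative (grey) and GFP positive (green) samples; bars give mean ± SD, n = 3. The groups are apart in the last 3 pairs and overlap in the first.

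Around these genes in the pathway, the pocket proteins that hold E2F in check were higher. Rb1, the retinoblastoma gene, read 6.87, 7.09 and 7.05 in GFP negative and 7.66, 7.56 and 7.57 in GFP positive samples, a rise of 0.60 ± 0.09 (SE, log2; limma adjusted p = 0.0012), and its second probe set changed by 0.09 and did not pass. Rbl1 (p107) rose by 0.53 and Rbl2 (p130) by 0.43. Rbl2 kept its call in 7 of 15 alternative settings and lost it when any 1 sample other than GFP negative 2 was left out.

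The atypical E2F genes E2f7 and E2f8, whose products repress E2F targets, rose. E2f7 read 5.22, 5.18 and 5.32 in GFP negative and 6.33, 6.24 and 6.61 in GFP positive samples, a 2.23-fold rise (limma adjusted p = 1.8e-04), and E2f8 rose by 0.63. E2f6, another repressor, fell by 0.28, although its second probe set changed by 0.03. It lost its call in 5 of 15 alternatives, among them the mean of its probe sets (-0.13, limma adjusted p = 0.20) and leaving out GFP negative 2, GFP negative 3 or GFP positive 2. In the list of 11 RB and other E2F-DP genes, 5 rose, 1 fell and 5 did not pass, so that 54.5% were called, beside 42.1% of all genes. The median change was -0.09, against -0.02 for all genes tested. Among those that did not pass were E2f3 at -0.09, E2f4 at -0.13 and E2f5 at -0.27. The E2F partner genes Tfdp1 at -0.18 and Tfdp2 at -0.31 did not pass either. Quantile normalization and centring each array on its median each gave 4 genes called higher and 3 lower. Tfdp2 was called as a fall under both (limma adjusted p of 0.041 and 0.045). So were E2f5 with quantile normalization (limma adjusted p = 0.048) and Tfdp1 with centred arrays (limma adjusted p = 0.024).

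CDK inhibitor genes included some of the largest changes near this pathway. Cdkn2c (p18), an inhibitor of CDK4 and CDK6, read 6.81, 6.81 and 7.08 in GFP negative and 8.19, 8.03 and 8.29 in GFP positive samples, a 2.41-fold rise (limma adjusted p = 1.3e-04). Cdkn2d (p19), of the same family, rose by 0.74, and Cdkn1b (p27), which binds cyclin E and CDK2, by 1.01, with a second Cdkn1b probe set at 0.26 that did not pass. Cdkn2a went from 1.45 ± 0.22 to 2.44 ± 0.45 and Cdkn1c fell from 1.60 ± 0.19 to 1.23 ± 0.06 (SD, n = 3), both near background, and neither passed with 32 added in linear units. Cdkn1a (p21) varied widely, at 6.15, 7.32 and 7.25 in GFP negative and 5.97, 6.71 and 6.31 in GFP positive samples, and did not pass at -0.58. It passed with replicate number as a block (limma adjusted p = 0.024) and without GFP negative 1, at -0.95 (limma adjusted p = 0.012). Among the 7 inhibitor genes 4 rose, 1 fell and 2 failed the test, a share called of 71.4% against 42.1% of all genes, with a median change of 0.74, and 3 rose with 32 added in linear units, where the median was 0.11.

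Among 13 other cyclins, kinases and activators, 3 rose and 3 fell, a share of 46.2%, near the 42.1% of all genes. The rises were of Cdc25c (0.90) and Cdc25b (0.85), the phosphatases that activate CDK1 at mitosis, and Ccna2 (cyclin A2, 0.64), which acts in S phase and G2. Mnat1, a subunit of the kinase that activates CDKs, changed by -0.33, and Ccnc and Cdk8, which form the kinase module of Mediator, by -0.38 each. Each of the 3 falls lost its call without GFP negative 2 or without GFP positive 3, which left 3 called. Cdk7, at -0.21, did not pass as deposited but passed as a fall in 5 of 15 alternatives. Among these were quantile normalization and centred arrays (limma adjusted p of 0.022 and 0.014), each with 3 genes called higher and 4 lower.

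Of 10 tested genes for the turnover of G1 cyclins and inhibitors, 3 rose and 2 fell, or 50% beside the 42.1% of all genes, with a median change of -0.05. Fzr1, the G1 activator of the anaphase-promoting complex, rose by 0.81, and Skp2, which targets p27 for degradation, by 0.38. Ambra1, which directs D-type cyclins to degradation, rose by 0.36, the ubiquitin ligase scaffold gene Cul1 fell by 0.35 and Fbxo4 by 0.23. Without GFP negative 1 or without GFP positive 3 the number called was 2, and without GFP negative 3 or GFP positive 2 it was 3. Of 15 alternatives, Fbxo4 kept its call in 5, Skp2 in 8, Ambra1 in 9, Cul1 in 14 and Fzr1 in 15. Skp2 and Ambra1 both lost theirs without GFP negative 1 or GFP positive 3, and with either other scaling of the arrays. Under each of those scalings, quantile normalization and arrays centred on their median, 1 gene was called higher and 3 lower. Fbxw7, which did not pass as deposited, was then called as a fall (limma adjusted p of 0.045 and 0.046).

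Most E2F targets of DNA synthesis did not pass, among them the Mcm genes, which encode the replicative helicase, and Pcna, the sliding clamp. Of 18 tested, 5 rose, 0 fell by limma and 13 missed the threshold, a share of 27.8% against 42.1% of all genes, with a median change of 0.12. At an unadjusted p under 0.05 there were 6, 1 of them lower, Cdc6 at -0.25. Cdc6 passed as a fall in 5 of 15 alternatives (limma adjusted p of 0.017 to 0.042). Orc1, at -0.22, did so in 3 of 15. The rises were of Ccna2, the ribonucleotide reductase genes Rrm1 (0.29) and Rrm2 (0.28), the thymidine kinase gene Tk1 (0.28) and Tyms (thymidylate synthase), which was dim at 1.95 in GFP negative and 2.66 in GFP positive cells. Rrm1 kept its call in 9 of 15 alternatives and Rrm2 and Tk1 in 12 each, and these 3 lost it without GFP negative 1 or with centred arrays. The number called was 2 without GFP negative 1 and 8 with a robust prior that follows intensity, 7 higher and 1 lower. With arrays centred on their median it was 4, of which 2 were lower.

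**Figure D4:**
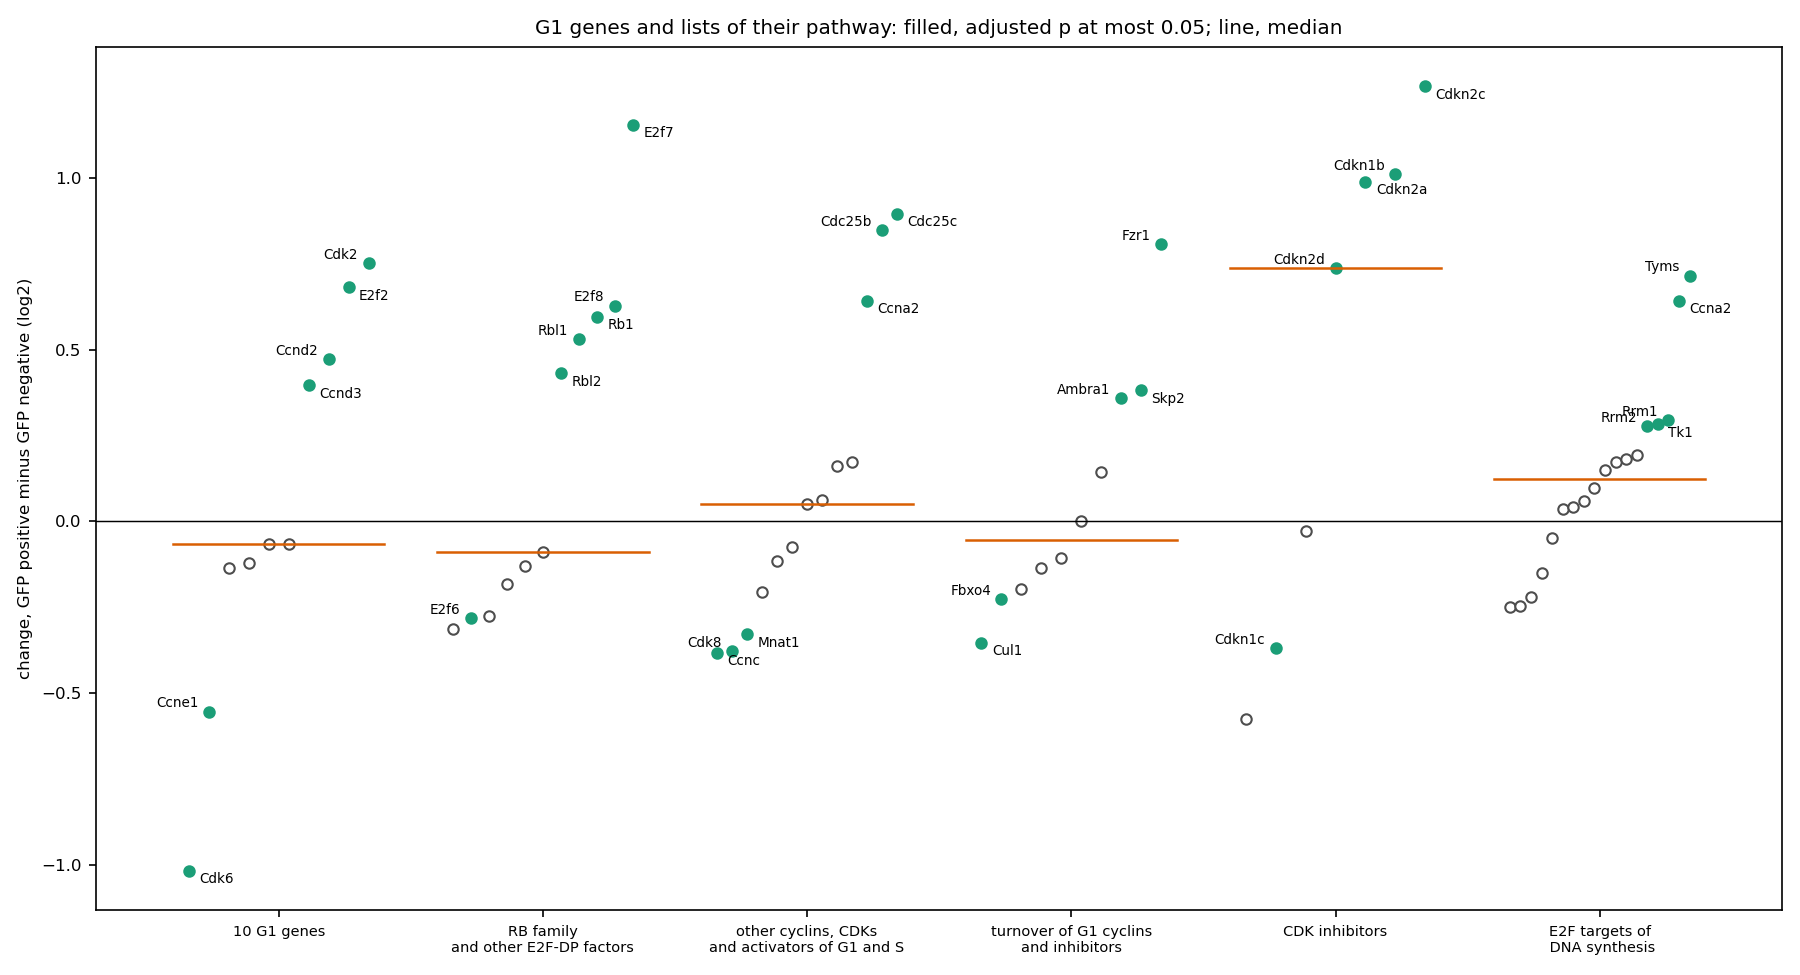
Change in log2 signal, GFP positive minus GFP negative (vertical axis), for the 10 G1 genes and for every tested gene of the 5 pathway lists, ordered by size within each list. Filled points have a limma adjusted p of at most 0.05 and are named, open points did not pass, and orange lines are medians, the highest being 0.74 for CDK inhibitors.

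The genes most like the extremes of the group in profile were found by the smallest Euclidean distance between log2 values over the 6 arrays, each centred on its own mean. For Cdk2 they were Zc3h6, Uckl1 and Smurf2, with changes of 0.72, 0.71 and 0.71 and distances of 0.0808, 0.0924 and 0.0990. For Cdk6 they were Ptk2b, Nolc1 and Gar1, with changes of -0.98, -0.96 and -0.93 and distances of 0.160, 0.170 and 0.180. Nolc1 and Gar1 encode nucleolar proteins and Ptk2b a tyrosine kinase. These are descriptions over 6 arrays in 2 groups, where a like profile mostly means a like difference between groups. Zc3h6 was dim, at 1.30 in GFP negative cells, and its change was as small as 0.065 among 14 alternatives. The 2 other Smurf2 probe sets changed by 0.20 and 0.28, with 1 called. A second Ptk2b probe set changed by -0.24 and did not pass, while 2 others of Nolc1 changed by -1.08 and -0.99, both called.

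The probe set representing Hdac7 read 4.81 to 4.86 in GFP negative and 8.09 to 8.18 in GFP positive samples, the direction that the labels would give. It was the brightest over all arrays only through its GFP positive values. In GFP negative cells it was dimmer than the second probe set, at 4.83 against 6.74. The second changed by -0.55, with no overlap of the groups, so the probe sets for Hdac7 disagreed. Of 6 T cell markers, 4 rose, among them Cd8a by 1.24 and Cd3e by 0.55, and their mean level was 9.32 to 9.51 in GFP negative and 9.91 to 10.12 in GFP positive samples. Markers of B, myeloid, NK and erythroid cells averaged 0.71 to 2.55 by cell type. The B cell marker Cd79b was brighter, at 4.50 in GFP negative and 4.35 in GFP positive cells. Of the 7 above the level 0 passed by limma (1 at an unadjusted p under 0.05). The myeloid marker Csf1r, at -0.32, passed in 6 of 15 alternatives and the erythroid marker Klf1, at -0.25, in 2 of 14. Both passed with replicate number as a block (limma adjusted p of 0.024 and 0.038). Cd79a passed as a fall with centred arrays (limma adjusted p = 0.025). Among dendritic cell markers 3 of 4 fell, from a mean level of 2.08 to 2.12 to one of 1.75 to 1.94. Of 14 alternatives, Flt3 kept its call in 13, Zbtb46 in 9 and Siglech in 2, and Siglech lost it with replicate number as a block (limma adjusted p = 0.057). The part of these in the changes of G1 genes was not tested. Centring each array on its median moved the median change of all genes from -0.02 to -0.14, and all 6 called G1 genes kept their direction and call. The 18S ribosomal control was highest in GFP negative 1, at 11.02 against 8.98 to 10.20 elsewhere, and the bioB hybridisation control in GFP positive 3, at 6.03 against 5.40 to 5.68. Without both samples the same 6 genes were called, with Ccnd3 closest to the threshold (limma adjusted p = 0.049), while 3325 genes were called in all, or 25.2%.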

How the data were processed

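Total RNA of 6 sorted samples was hybridised to Affymetrix Mouse Genome 430 2.0 arrays, as the extraction protocols in the labels say, with 1 array for each sample. The deposited values are on the log2 scale, as read from their range. Expression Console made them, per the submitters' processing notes. Low signals depend on its summary algorithm, background treatment and normalization, none of which is stated in the sources used here. The array number limits the precision.

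Each gene was represented by its brightest probe set with 1 symbol. Features under the 40th percentile of mean signal were left out, and limma 3.58.1 in R 4.3.3 (group as the only term, two-sided, Benjamini-Hochberg over all 13194 genes or 27022 probe sets, threshold 0.05) compared the groups. The procedure was also run on simulated data with few changed genes and no link between replicate numbers. That setting differs from these data, so the run does not give their error rate. Named genes are all 10 members, list genes past the threshold and the 3 nearest profiles of the largest called rise and fall. Cdkn1a, Pcna, the Mcm genes, Cdc6, Orc1, Cdk7, Ccnd1, E2f3, E2f4, E2f5, Tfdp1, Tfdp2 and Fbxw7 were named after their values were seen. The same holds for the markers Cd79a, Cd79b, Csf1r and Klf1. The members and lists were chosen with earlier results of these data known. Among the listed genes, Skp1a and Chaf1a had no probe set under that symbol alone and were not analysed here.

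Samples with the same replicate number deviated together from their group means (correlations across genes of 0.47, 0.35 and 0.25, against -0.33 to 0.04 for unlike numbers). Deviations from the mean of the same 3 samples are tied to each other, and so are these values. They are the basis for the replicate block among the alternatives and for differences given by replicate number. The main fit does not treat the numbers as pairs, and the labels do not state pairing. Alternatives were other filters, scalings, an added constant, another prior, the mean of a gene's probe sets, the replicate block and left-out samples.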

Additional observations from a re-analysis of the deposited data

How the results depend on the processing

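In the fit over genes, Ccnd2, Ccnd3, Ccne1, Cdk2, Cdk6 and E2f2 kept their direction and their call in all 15 alternatives, and Ccne2, Cdk4 and E2f1 passed in 0 of them by limma (Cdc25a in 1). In the fit over probe sets, the one representing Ccnd3 kept its call in 12 of 14. With replicate number as a block 5858 genes and 8666 probe sets were called, with 6 G1 genes and 14 of their probe sets; the block ended the calls of 2 Ccnd2 probe sets and of Fbxo4, started that of Cdkn1a, and changed no other call among the G1 genes, their probe sets and the list genes. Without GFP negative replicate 1 and GFP positive replicate 3 together, the genes called numbered 3325, the probe sets called 4374 and the G1 probe sets called 10, and Ccnd2 minus Ccnd3 was -0.0063. With the mean of all probe sets per gene, Ccnd2 minus Ccnd3 was -0.14 and E2f1 minus E2f2 was -0.62. E2f1 minus E2f2 was also -0.62 with 32 added in linear units, and -0.83 with quantile normalization, an alternative chosen after seeing the data. The share of called genes that were higher was 58.4% as deposited, 49.0% with quantile normalization and 39.6% with centred arrays. Leaving out single samples gave 4315 to 5604 genes, 6290 to 9518 probe sets and 13 to 16 G1 probe sets called, and Ccnd2 minus Ccnd3 between 0.014 and 0.15. The alternatives for list genes and markers were also chosen after seeing the data. Signals near 1 are close to those of the bacterial control probe sets.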
